A study of Homo sapiens with 3 samples.

Results

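POU5F1, SOX2 and NANOG, the core transcription factors of pluripotency, were followed across the cells of 3 single-cell RNA libraries of micropatterned human embryonic stem cell colonies. The 3 genes were found by symbol among the 38606 genes of the count tables, where each symbol stood for 1 Ensembl gene: ENSG00000204531 for POU5F1, ENSG00000181449 for SOX2 and ENSG00000111704 for NANOG. The cells were HES3, 1 established stem cell line of human embryonic origin in which MIXL1 drives GFP, and had been seeded for every library in pluripotency medium containing 10 µM of the ROCK inhibitor Y-27632. Treatment began after 24 h and lasted 48 h. The CHIR+Activin library received 3 µM of CHIR99021, a GSK3 inhibitor that activates WNT signalling, together with Activin A at 100 ng/mL, which acts through the receptors of NODAL. The CHIR library received 6 µM of CHIR99021 alone, and the BMP4 library received 50 ng/mL of BMP4. About 10 colonies were pooled into each library, and each treatment was 1 library, so no test between treatments was possible. Intervals in parentheses are exact 95% intervals that cover counting error only. Among levels, a 2-fold difference was used as a rule of size over all genes with at least 10 CPM (CPM is a gene's UMIs as a share of all UMIs of the summed cells, in parts per 1000000) in either group compared.

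POU5F1 (OCT4) and SOX2 bind DNA side by side at composite sites and sustain the pluripotent state together with NANOG, a homeodomain factor that maintains self-renewal. The 3 factors part ways when human pluripotent cells differentiate. SOX2 is known to be kept in neural ectoderm and lost in mesendoderm, NANOG is known to persist into the primitive streak, and human primordial germ cells express POU5F1 and NANOG without SOX2, together with SOX17, TFAP2C and PRDM1. MIXL1, TBXT and EOMES, used below to mark cells, are transcription factors of the primitive streak, through which mesoderm and endoderm arise.

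SOX2 and NANOG were both lower in BMP4 than in either CHIR library, and their promoters are shown for the sites that the factors are known to bind. The sequences are the 250 bases before each RefSeq transcription start (GRCh38.p14, 2 of 3 members matched), which lie at chr3:181711675-181711924 on the plus strand for SOX2 and at chr12:7789152-7789401 on the plus strand for NANOG. Capitals mark the octamer core ATGCAAA, and in NANOG the octamer core with the adjoining SOX core.
SOX2: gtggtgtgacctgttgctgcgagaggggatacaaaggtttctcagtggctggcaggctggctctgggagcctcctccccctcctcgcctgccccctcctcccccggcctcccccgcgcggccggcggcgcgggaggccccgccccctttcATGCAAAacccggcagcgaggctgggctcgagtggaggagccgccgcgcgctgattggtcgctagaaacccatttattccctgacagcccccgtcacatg
NANOG: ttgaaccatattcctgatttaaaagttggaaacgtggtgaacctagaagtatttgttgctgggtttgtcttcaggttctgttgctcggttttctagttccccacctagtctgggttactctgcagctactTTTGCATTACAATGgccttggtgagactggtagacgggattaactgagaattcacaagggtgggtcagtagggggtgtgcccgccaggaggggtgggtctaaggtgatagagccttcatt
The motifs searched on both strands were the octamer core ATGCAAA, the SOX core CATTGT, and a joined motif of the SOX core, any 1 base and the octamer core, which overlaps each of the other motifs. The SOX2 window held the octamer core from 100 to 94 bases before the start. The NANOG window held the joined motif from 120 to 107 bases before the start, on the minus strand as TTTGCATTACAATG. Of 35116 promoter windows of the same length, 3.94% held the octamer core, 9.29% held the SOX core and 2 windows (0.00570%) held the joined motif. A match of letters is a description and no measurement of binding was made here.

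Barcodes with at least 2000 genes and at most 15% of UMIs from mitochondrial genes were kept, with at least 3739 UMIs in the BMP4 library, whose matrix held all droplets. This left 6876 CHIR+Activin cells, 7084 CHIR cells and 9401 BMP4 cells, with 130592423, 185215378 and 137174566 UMIs. Median depth was 17202 UMIs per cell in CHIR+Activin, 22919.5 in CHIR and 12623 in BMP4. Pairs of libraries shared between 8 and 12 cell barcodes. Where cells were compared one by one, each was thinned to 10000 UMIs, which left out 4.84% of CHIR+Activin cells, 2.71% of CHIR cells and 25.1% of BMP4 cells.

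POU5F1 was the member that differed least between libraries. Its level was 1070.2 CPM (1065 to 1076) in CHIR+Activin, 1042 CPM (1038 to 1047) in CHIR and 896 CPM (891 to 901) in BMP4. SOX2 stood at 86.3 CPM (84.7 to 87.9) in CHIR+Activin and 71.2 CPM (69.9 to 72.4) in CHIR, against 23.9 CPM (23.1 to 24.7) in BMP4. NANOG stood at 66.8 CPM (65.5 to 68.3) in CHIR+Activin and 72.4 CPM (71.1 to 73.6) in CHIR, against 30.7 CPM (29.8 to 31.6) in BMP4. SOX2 and NANOG were thus high in both CHIR libraries and low in the BMP4 library, while POU5F1 differed little. For SOX2 the order of levels was CHIR+Activin, CHIR, BMP4, and for NANOG it was CHIR, CHIR+Activin, BMP4, with intervals that did not overlap between neighbours for any member.

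SOX2 was 2.98-fold higher in CHIR than in BMP4 (log2 1.57, 1.52 to 1.63), and NANOG was 2.36-fold higher (log2 1.24, 1.19 to 1.29). POU5F1 was 1.16-fold higher (log2 0.22, 0.21 to 0.23). SOX2 and NANOG were therefore 2 of 3 members past the 2-fold rule, which 2.85% of the 10122 genes compared passed in this direction and 3.09% in the other, around a median log2 ratio of 0.03 over all genes. Against the same BMP4 library, which both comparisons share, SOX2 was 3.61-fold higher in CHIR+Activin (log2 1.85, 1.80 to 1.91), NANOG 2.18-fold higher (log2 1.12, 1.07 to 1.18) and POU5F1 1.19-fold higher (log2 0.26, 0.24 to 0.27). Here too 2 of 3 members passed the rule, beside 1.84% of 9968 genes, while 2.88% were at least 2-fold lower. In that comparison 0.201% of genes had a higher ratio than SOX2, and 1.32% had a higher ratio than NANOG.

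Between the CHIR libraries no member was 2-fold apart, and of 9821 genes 0.183% were at least 2-fold higher and 0.0204% at least 2-fold lower in CHIR+Activin. SOX2 was 1.21-fold higher in CHIR+Activin than in CHIR (log2 0.28, 0.24 to 0.32), NANOG was slightly lower (log2 -0.11, -0.15 to -0.08), and POU5F1 was nearly equal (log2 0.038, 0.028 to 0.048). The libraries also differed in genes of the integrated stress response, although 0 of 6 compared were 2-fold apart between CHIR+Activin and CHIR (median log2 -0.60). Of 6 compared, 4 were at least 2-fold higher in CHIR than in BMP4 (median log2 1.85), beside 2.85% of all genes. For CHIR+Activin over BMP4 it was also 4 of 6 (median log2 1.25), beside 1.84%. The summed level of 9 such genes was 391 CPM in CHIR+Activin cells, 573 CPM in CHIR cells and 200.4 CPM in BMP4 cells. Within CHIR it was 505 CPM in cells with a SOX2 UMI, against 626 CPM in cells without one, while within CHIR+Activin it was 389 CPM, against 393 CPM, and within BMP4 256 CPM, against 191 CPM. Cells with 5 or more UMIs of the stress genes among 10000 UMIs were then removed, as were all cells under 10000 UMIs. After this the SOX2 difference between CHIR+Activin and CHIR was log2 0.011, while the ratios over BMP4 were log2 1.94 for CHIR+Activin and log2 1.93 for CHIR.

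Near-identical copies can share reads with the members. POU5F1B, a retrogene copy of POU5F1, was listed at 39.9 CPM in CHIR+Activin, 38.1 CPM in CHIR and 31.1 CPM in BMP4, which is 3.73%, 3.66% and 3.47% of the POU5F1 level. NANOGP8, a retrogene copy of NANOG, was listed at 4.16 CPM in CHIR+Activin, 5.50 CPM in CHIR and 2.27 CPM in BMP4. The copies kept the order of libraries of their members, and whether their UMIs came from the copy or from the member cannot be told apart here. SOX2-OT, the long non-coding RNA whose gene spans SOX2, stood at 7.04 CPM in CHIR+Activin, 8.42 CPM in CHIR and 5.23 CPM in BMP4.

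Nearly every cell had a POU5F1 UMI, so detection could not separate cells by POU5F1. At 10000 UMIs per cell, 99.9% of cells had a POU5F1 UMI in each library, with a median of 11 UMIs in CHIR+Activin, 10 in CHIR and 9 in BMP4. A SOX2 UMI was found in 48.2% of CHIR+Activin cells (47.0 to 49.4), 43.1% of CHIR cells (41.9 to 44.3) and 13.9% of BMP4 cells (13.1 to 14.8). A NANOG UMI was found in 47.7% of CHIR+Activin cells (46.5 to 49.0), 50.3% of CHIR cells (49.1 to 51.5) and 22.6% of BMP4 cells (21.6 to 23.6). Without thinning the SOX2 shares were 61.9%, 64.0% and 16.7%, and the NANOG shares were 65.8%, 77.2% and 28.2%, in the same order of libraries. At these depths a cell without a UMI may still express the gene.

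SOX2 UMIs were spread unevenly over cells, most of all in BMP4. The variance of SOX2 UMIs over their mean, which is 1 for counts spread at random, was 1.49 in CHIR+Activin, 1.47 in CHIR and 2.12 in BMP4. For NANOG it was 1.08, 1.07 and 1.38, and for POU5F1 it was 1.49, 1.36 and 1.72. Cells with no NANOG UMI were 52.3% in CHIR+Activin, 49.7% in CHIR and 77.4% in BMP4, where counts spread at random give 51.1%, 48.6% and 73.9%. In BMP4, 159 cells with 3 or more SOX2 UMIs, 2.26% of cells, held 36.5% of all SOX2 UMIs. SOX2 UMIs were also found in cells taken here to lack SOX2, which was assumed and not tested. HAND1, a factor of lateral and extraembryonic mesoderm, marked 1543 BMP4 cells, and 4.02% of them had a SOX2 UMI. Their median depth was 14644 UMIs, against 14354 in the other cells. In CHIR+Activin SOX2 UMIs were found in 4.76% of 84 cells with SOX17, from 4 UMIs in all. Median depth was 17556 UMIs in these, against 17580 in the other cells. NANOG UMIs were found in 7.78% of the HAND1 cells, against 26.7% of the other BMP4 cells. The SOX2 shares were read as background on this assumption, and none was made for NANOG. In BMP4 a SOX2 UMI was found in 3.31% of cells with CDX2 and 1.71% of cells with both SOX17 and TFAP2C. Droplets of the BMP4 matrix with 1 to 100 UMIs held SOX2 at 44.7 CPM and NANOG at 48.1 CPM. No marked group of at least 50 cells in CHIR served as such a background.

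The excess of SOX2 and NANOG in the CHIR libraries was not found in cells without a marker of differentiation. Cells with 0 UMIs of each of 11 marker genes (TBXT, MIXL1, EOMES, MESP1, HAND1, GATA3, TFAP2A, SOX17, TFAP2C, FOXA2 and CDX2) numbered 1406 of 6543 in CHIR+Activin, 1159 of 6892 in CHIR and 360 of 7041 in BMP4, or 21.5%, 16.8% and 5.11% of cells. In these cells SOX2 stood at 125.6 CPM (119.8 to 131.6) in CHIR+Activin, 102.8 CPM (97.0 to 108.8) in CHIR and 142.5 CPM (130.4 to 155.4) in BMP4. The BMP4 library thus held the highest SOX2 level of the 3 among marker-free cells, with CHIR at log2 -0.47 (-0.62 to -0.32) and CHIR+Activin at log2 -0.18 (-0.32 to -0.037) relative to it. NANOG stood at 69.8 CPM (65.5 to 74.4) in CHIR+Activin, 76.4 CPM (71.5 to 81.6) in CHIR and 77.2 CPM (68.4 to 86.9) in BMP4, and these intervals overlapped. POU5F1 stood at 1168 CPM, 1088 CPM and 1134 CPM, in the same order. Marker-free cells made up 24.5% of the BMP4 cells with a SOX2 UMI (21.9 to 27.4), although they were 5.11% of all BMP4 cells. At full depth 878 CHIR+Activin, 533 CHIR and 272 BMP4 cells of these still held no marker UMI. Marker-free cells of the 3 libraries need not be at the same stage, and marker levels differed between libraries. Over all cells MESP1 stood at 4.79 CPM in CHIR+Activin, 0.734 CPM in CHIR and 245 CPM in BMP4. FOXA2 stood at 40.5, 54.6 and 2.93 CPM, in the same order.

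Among cells with at least 2 MIXL1 UMIs, here called the MIXL1 gate, the SOX2 ratios were larger than over all cells. Cells called "with" another marker below likewise held at least 2 of its UMIs. SOX2 stood at 45.6 CPM (43.0 to 48.4) in the 2404 gated CHIR+Activin cells and 45.9 CPM (43.4 to 48.6) in the 2751 gated CHIR cells, against 9.70 CPM (8.78 to 10.7) in the 4206 gated BMP4 cells. SOX2 was therefore 4.70-fold higher in CHIR+Activin than in BMP4 and 4.74-fold higher in CHIR than in BMP4 within this gate. NANOG was 60.2 CPM in CHIR+Activin and 68.3 CPM in CHIR, against 22.1 CPM in BMP4. Gated cells of the 3 libraries need not be at the same stage, and MIXL1 itself stood at 174 CPM, 171 CPM and 282 CPM over all cells of CHIR+Activin, CHIR and BMP4.

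**Figure D1:**
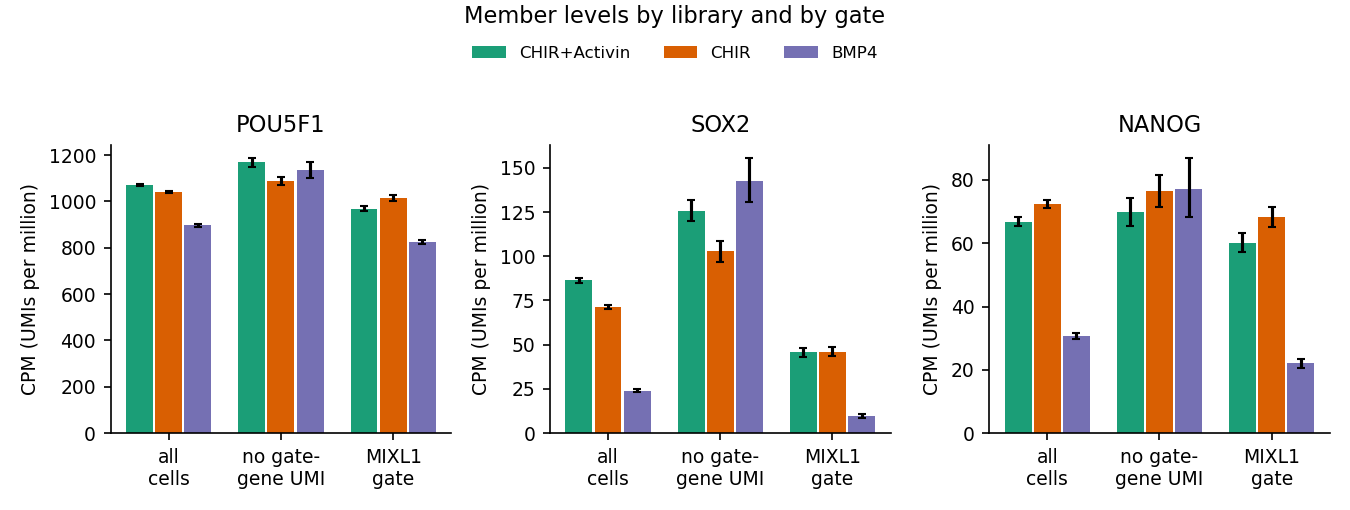
Levels in CPM of POU5F1, SOX2 and NANOG (panels) over all kept cells, in cells with no UMI of 11 marker genes and in cells with at least 2 MIXL1 UMIs, for CHIR+Activin, CHIR and BMP4. Bars are CPM of the summed cells and whiskers are exact 95% Poisson intervals. SOX2 in BMP4 is the lowest of its library bars over all cells at 23.9 CPM and the highest among marker-free cells at 142.5 CPM.

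SOX2 was lower the more streak-marker UMIs a cell held, in all 3 libraries. Cells were binned by 0, 1, 2 to 3 and 4 or more MIXL1 UMIs. In CHIR+Activin SOX2 was 114.7, 86.2, 62.1 and 26.3 CPM over these bins. In CHIR it was 92.1, 72.3, 52.7 and 34.9 CPM. In BMP4 it was 54.9, 22.5, 13.7 and 6.80 CPM. The bins of neighbouring MIXL1 counts did not overlap in their SOX2 intervals in any library.

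NANOG followed MIXL1 less closely than SOX2 did in the CHIR libraries. Over the same MIXL1 bins it was 69.3, 75.2, 69.5 and 49.3 CPM in CHIR+Activin and 75.5, 73.9, 70.4 and 64.8 CPM in CHIR. The last bin of CHIR+Activin (45.2 to 53.6) lay below all its other bins, and the last bin of CHIR (60.0 to 69.9) lay below its first alone. In BMP4 NANOG was 47.1, 34.5, 28.0 and 17.8 CPM, lower in each bin than in the one before. POU5F1 was also lower in each bin than in the one before in every library. It was 1147, 1122, 1059 and 863 CPM over the bins in CHIR+Activin, 1084, 1058, 1047 and 962 CPM in CHIR, and 1017, 955, 882 and 779.5 CPM in BMP4.

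Bins of TBXT gave the same pattern for SOX2, although in CHIR the intervals of the last 3 bins overlapped from one to the next. From 0 to 4 or more TBXT UMIs, SOX2 was 97.8, 62.9, 41.0 and 15.7 CPM in CHIR+Activin, 77.0, 55.9, 47.0 and 39.2 CPM in CHIR, and 53.5, 20.1, 10.1 and 4.39 CPM in BMP4. The last bin held 89 cells in CHIR+Activin, 51 in CHIR and 1525 in BMP4. NANOG over the TBXT bins was 70.7, 63.6, 54.4 and 44.9 CPM in CHIR+Activin and 74.0, 72.3, 61.0 and 47.1 CPM in CHIR. In the last TBXT bin of BMP4 NANOG was 14.1 CPM. Over EOMES bins SOX2 ended at 23.9 CPM in CHIR+Activin, 32.6 CPM in CHIR and 7.09 CPM in BMP4.

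**Figure D2:**
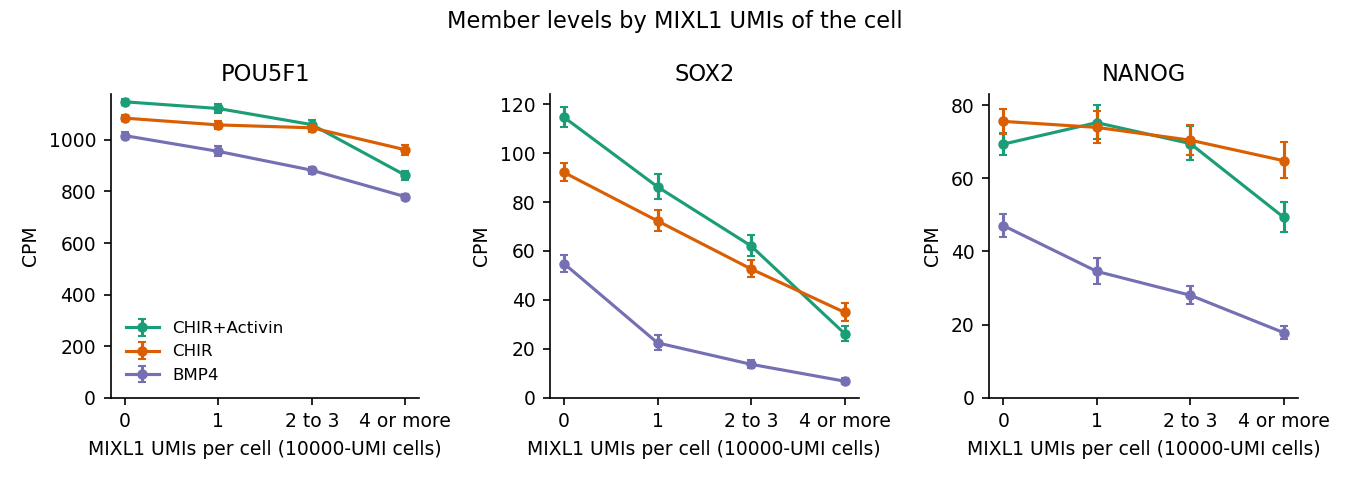
Levels in CPM of each member (panels) in cells with 0, 1, 2 to 3 and 4 or more MIXL1 UMIs, all cells thinned to 10000 UMIs, with 1 line per library and exact 95% Poisson intervals. SOX2 is lower in each bin than in the one before in every library, and in the last bin stands at 26.3 CPM in CHIR+Activin, 34.9 CPM in CHIR and 6.80 CPM in BMP4, whereas NANOG stays between 64.8 and 75.5 CPM in CHIR.

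In BMP4 colonies, cells with MESP1 or HAND1 were low in SOX2 and in NANOG. In the 3087 cells with MESP1, a factor of nascent mesoderm, SOX2 was 5.28 CPM, against 37.0 CPM in the other cells (log2 -2.81, -3.05 to -2.57). NANOG was 12.1 CPM in them, against 44.5 CPM in the other cells (log2 -1.89, -2.05 to -1.72). POU5F1 was still at 759 CPM, against 995 CPM in the other cells. In the 1543 HAND1 cells NANOG was 8.94 CPM, against 36.3 CPM in the other cells, and POU5F1 was 744 CPM, against 933 CPM. The 56 MESP1 cells of CHIR+Activin had POU5F1 at 561 CPM, against 1081 CPM in the other cells, and NANOG at 19.6 CPM, against 67.6 CPM.

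The 822 BMP4 cells with at least 2 UMIs of GATA3 and TFAP2A summed, factors of amnion and trophoblast, were low in SOX2 but close to the other cells in NANOG and POU5F1. SOX2 was 5.35 CPM in them, against 25.4 CPM in the other cells (log2 -2.25, -2.72 to -1.82). NANOG was 26.5 CPM, against 30.8 CPM in the other cells (log2 -0.22, -0.42 to -0.013). POU5F1 was 928 CPM, against 887 CPM in the other cells (log2 0.07, 0.03 to 0.10). In 181 cells with CDX2, a factor of trophoblast and of caudal tissues, SOX2 was 3.87 CPM and NANOG 19.3 CPM, against 23.6 CPM and 30.6 CPM in the other cells.

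NANOG and SOX2 parted furthest in BMP4 cells with SOX17 and TFAP2C, the factors that specify human germ cells. In the 175 cells with at least 2 UMIs of each, 2.49% of BMP4 cells, NANOG was 81.7 CPM (68.9 to 96.3), against 29.0 CPM (27.7 to 30.3) in the other cells, which is 2.82-fold higher. SOX2 was 2.86 CPM (0.928 to 6.67), against 23.6 CPM (22.5 to 24.8) in the other cells, from 5 UMIs in all. POU5F1 was 988 CPM (942 to 1036), against 889 CPM (882 to 896) in the other cells. A NANOG UMI was found in 46.9% of these cells, against 21.9% of the other cells, and a SOX2 UMI in 1.71%, against 14.3%. In all 446 BMP4 cells with TFAP2C NANOG was 60.8 CPM, against 28.2 CPM in the other cells. No group with both markers could be described in the CHIR libraries, where 1 cell in CHIR+Activin and 0 in CHIR (upper bound 0.0535% of cells) held them.

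The SOX17 cells as a whole group, with and without TFAP2C pooled, held different NANOG levels in the libraries. SOX17 is also a factor of definitive endoderm. In the 84 SOX17 cells of CHIR+Activin NANOG was 27.4 CPM (17.4 to 41.1), against 67.7 CPM in the other cells (log2 -1.31, -1.96 to -0.72). In the 648 SOX17 cells of BMP4 NANOG was 43.7 CPM (38.7 to 49.1), against 28.9 CPM in the other cells (log2 0.59, 0.41 to 0.78). Of the 283 NANOG UMIs in these BMP4 cells, 143 lay in the 175 cells that also held TFAP2C. Those 175 cells stood at 81.7 CPM, so the SOX17 cells without TFAP2C lay below the 43.7 CPM of the whole group. The level without TFAP2C was not computed, so these cells were not compared with the other cells or between libraries. The difference between these ratios was not tested, with 1 library each. POU5F1 was 493 CPM (447 to 543) in the SOX17 cells of CHIR+Activin, against 1084 CPM (1076 to 1092) in the other cells, the lowest POU5F1 level of any gate with at least 50 cells. In the SOX17 cells of BMP4 it was 895 CPM, against 891 CPM in the other cells. SOX2 was low in the SOX17 cells of both libraries, at 4.76 CPM in CHIR+Activin and 4.63 CPM in BMP4. CHIR had 3 such cells, too few to describe.

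FOXA2, a factor of anterior streak and endoderm, marked 579 CHIR+Activin cells and 909 CHIR cells. SOX2 was 37.3 CPM in the FOXA2 cells of CHIR+Activin, against 87.9 CPM in the other cells, and 32.2 CPM in those of CHIR, against 74.8 CPM in the other cells. NANOG was 54.1 CPM in the FOXA2 cells of CHIR+Activin, against 68.4 CPM in the other cells, and 58.9 CPM in those of CHIR, against 74.3 CPM. POU5F1 in FOXA2 cells was 999.7 CPM in CHIR+Activin and 1002 CPM in CHIR. The BMP4 library had 29 FOXA2 cells, too few to describe.

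**Figure D3:**
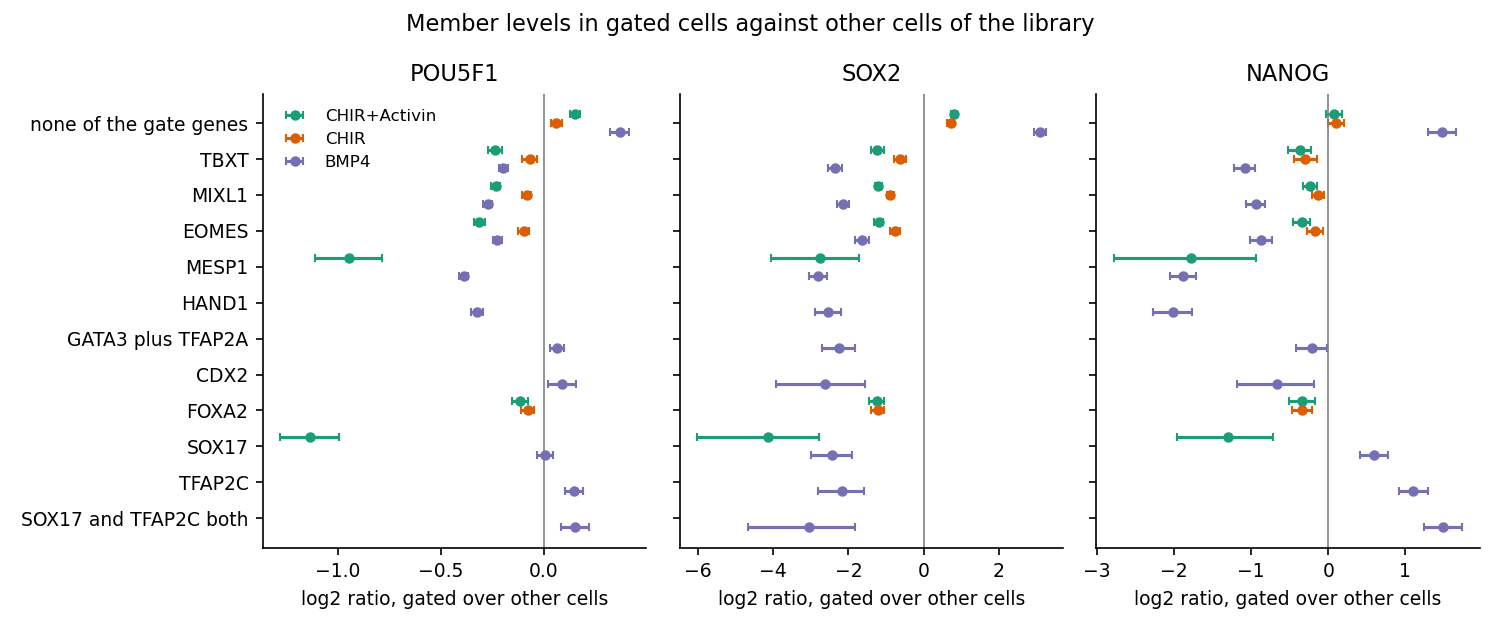
Log2 ratio of each member (panels) between gated cells, with at least 2 UMIs of the named marker, and the other cells of the same library, with exact 95% intervals for counting error and groups under 50 cells left out. The top row is cells with no UMI of any marker gene. SOX2 lies below 0 in every marker gate, and NANOG lies above 0 in the SOX17, TFAP2C and joint gates of BMP4, at 2.82-fold in the joint gate, and below 0 in the SOX17 gate of CHIR+Activin at -1.31.

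SOX2 and NANOG were found in the same cells more often than their single shares give in BMP4, and slightly so in the CHIR libraries. Both were detected in 1634 CHIR+Activin cells, where the product of the single shares gives 1506 (ratio 1.08). Both were detected in 1583 CHIR cells, where the product gives 1495 (ratio 1.06). In BMP4 both were detected in 416 cells, where the product gives 222 (ratio 1.88). Such a ratio has a lower ceiling where the single shares are higher, as in the CHIR libraries, so its size cannot be compared directly between libraries. The Pearson correlation of SOX2 and NANOG UMIs over cells was 0.076 in CHIR+Activin, 0.057 in CHIR and 0.163 in BMP4. Of BMP4 cells with a SOX2 UMI 42.4% had a NANOG UMI (39.2 to 45.5), against 19.4% of those without (18.4 to 20.4). The same shares were 51.8% against 44.0% in CHIR+Activin and 53.3% against 48.0% in CHIR.

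NANOG without SOX2 was the larger of the single classes in BMP4 and in CHIR, which follows from the larger NANOG share of cells there. NANOG alone was detected in 22.8% of CHIR+Activin cells, 27.3% of CHIR cells and 16.7% of BMP4 cells. SOX2 alone was detected in 23.2% of CHIR+Activin cells, 20.1% of CHIR cells and 8.04% of BMP4 cells. Neither was detected in 29.0% of CHIR+Activin cells and 29.6% of CHIR cells, against 69.4% of BMP4 cells. POU5F1 was lowest where neither was detected, at 823 CPM in BMP4, against 1132 CPM in BMP4 cells with both, 999 CPM in those with NANOG alone and 1085 CPM in those with SOX2 alone.

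**Figure D4:**
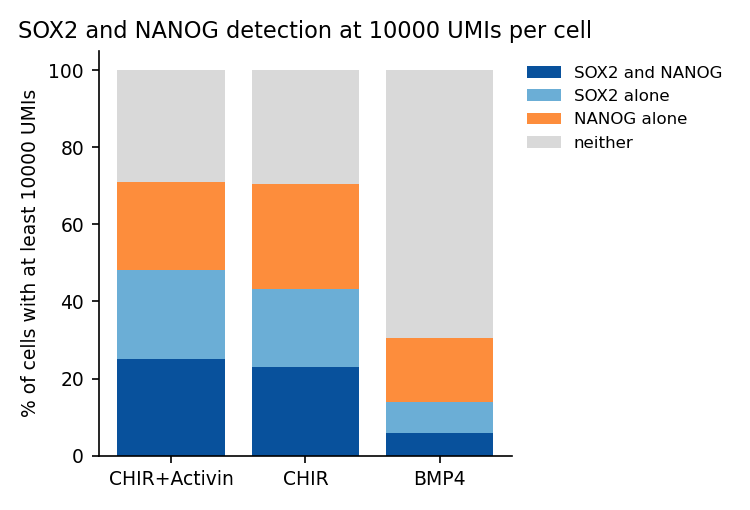
Share of cells, in % of cells with at least 10000 UMIs, with UMIs of SOX2 and NANOG, SOX2 alone, NANOG alone or neither, for CHIR+Activin, CHIR and BMP4, all thinned to 10000 UMIs. Cells with neither make up 29.0% of CHIR+Activin cells and 29.6% of CHIR cells, against 69.4% of BMP4 cells.

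POU5F1 levels went with SOX2 levels most clearly in BMP4. The cells at or above the 75th percentile of POU5F1 UMIs held at least 13 UMIs in CHIR+Activin and CHIR and 11 in BMP4, and those at or below the 25th held at most 8, 8 and 6. In the upper BMP4 cells SOX2 was 40.0 CPM, against 7.68 CPM in the lower. NANOG was 43.9 CPM in the upper cells, against 16.5 CPM in the lower. In CHIR+Activin SOX2 was 96.8 CPM in the upper cells, against 69.1 CPM in the lower, and in CHIR it was 77.5 CPM, against 61.7 CPM. NANOG in CHIR+Activin was 72.3 CPM (68.7 to 76.0) in the upper cells, against 59.0 CPM (55.7 to 62.5) in the lower, with intervals that did not overlap. NANOG in CHIR was 73.5 CPM (69.8 to 77.4) in the upper cells, against 69.9 CPM (66.4 to 73.5) in the lower, with intervals that overlapped.

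BMP4 cells with NANOG alone held more UMIs of germ cell markers, and also of some amnion and trophoblast markers, than BMP4 cells with SOX2 alone. PRDM1, a repressor that acts in germ cell specification, was 57.0 CPM in the 1173 NANOG-alone cells, against 5.30 CPM in the 566 SOX2-alone cells, 10.8-fold higher (log2 3.43, 2.90 to 4.01). SOX17 was 75.7 CPM, against 18.2 CPM (log2 2.06, 1.76 to 2.37), and TFAP2C was 54.6 CPM, against 19.1 CPM (log2 1.52, 1.22 to 1.82). NANOS3, an RNA-binding protein of germ cells, was 8.61 CPM, against 1.06 CPM. Of the amnion and trophoblast factors, TFAP2A was 32.2 CPM, against 10.4 CPM (log2 1.63, 1.23 to 2.05), CDX2 was 13.6 CPM, against 6.89 CPM, and GATA3 was 21.3 CPM, against 14.5 CPM. In the 4886 BMP4 cells with neither member, TFAP2A was 32.9 CPM, CDX2 17.4 CPM and GATA3 28.1 CPM. These factors were thus low in the SOX2-alone cells and not raised in the NANOG-alone cells over the cells with neither. PRDM1 and TFAP2C were at 22.0 CPM and 24.97 CPM in the cells with neither, below the NANOG-alone cells. Of all 9947 genes compared, 0.724% were at least 2-fold higher and 0.573% at least 2-fold lower in the NANOG-alone cells. These marker genes were chosen with their values known.

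USP44 and RMST were higher in the SOX2-alone cells of BMP4. Both were chosen with their values known and are higher with SOX2 in these same cells (below), so this is no separate result. USP44, a deubiquitinase of embryonic stem cells, was 47.2 CPM in NANOG-alone cells, against 107 CPM in SOX2-alone cells (log2 -1.18, -1.35 to -1.01). RMST, a long non-coding RNA known to bind SOX2, was 42.5 CPM, against 129 CPM (log2 -1.60, -1.77 to -1.43). MIXL1 was 242 CPM in NANOG-alone cells, against 180 CPM in SOX2-alone cells. In CHIR+Activin MIXL1 was 197 CPM in the NANOG-alone cells, against 98.4 CPM in the SOX2-alone cells, and the endoderm and mesoderm factor GATA6 was 52.3 CPM, against 16.2 CPM. RMST was 62.1 CPM in the NANOG-alone cells of CHIR+Activin, against 100.2 CPM in the SOX2-alone cells. In CHIR MIXL1 was 182 CPM, against 125 CPM. Of all genes compared, 0.257% were at least 2-fold higher and 0.0206% at least 2-fold lower in the NANOG-alone cells of CHIR+Activin, and 0.0506% and 0% in those of CHIR.

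**Figure D5:**
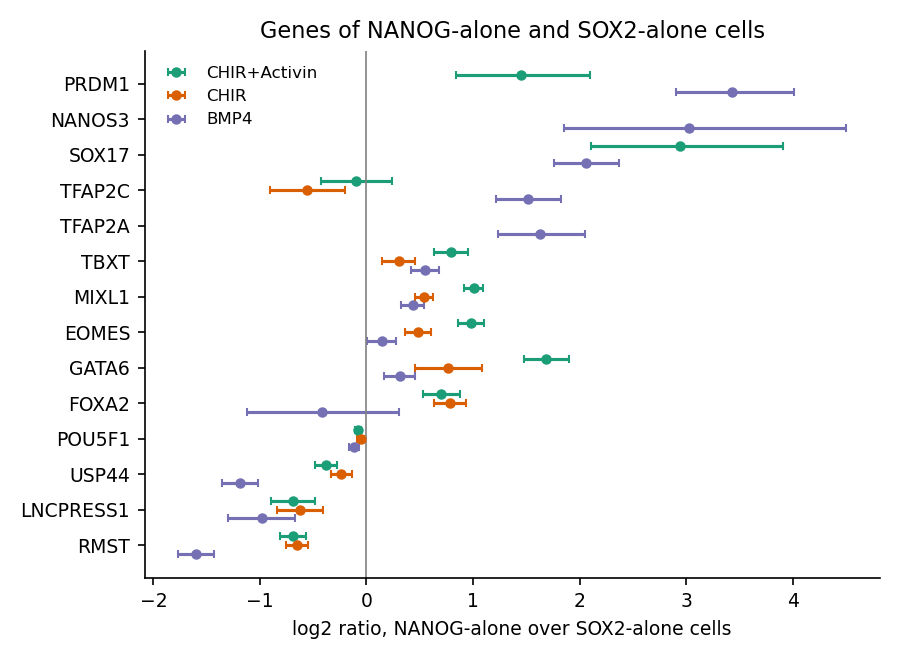
Log2 ratio of selected genes between cells with NANOG alone and cells with SOX2 alone in each library, with exact 95% intervals and genes under 3 CPM in both classes left out. PRDM1 in BMP4 lies at 3.43 and RMST in BMP4 at -1.60.

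Genes whose pattern was most like that of SOX2 were named by a fixed measure, the smallest log2 ratio over the 3 libraries between cells with and without a SOX2 UMI. Of 9428 genes compared in all 3 libraries, 2190 were higher and 2059 lower in SOX2 cells in each. The leading 8 were JAKMIP2-AS1, SLC24A2, MGAT4C, RMST, GPR176, LNCPRESS1, TRIML2 and COBL. JAKMIP2-AS1, an antisense gene whose counts depend on a strand setting not given in the sources used here, was 37.7 CPM in CHIR+Activin cells with SOX2, against 14.1 CPM in those without. It was 30.5 CPM, against 14.3 CPM, in CHIR, and 16.8 CPM, against 2.77 CPM, in BMP4. RMST was 136 CPM in BMP4 cells with SOX2, against 21.7 CPM in those without.

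The genes most opposed to SOX2 were GATA6, FGF17, CER1, DKK1, CALCR, PLXNA2, CYP26A1 and GSC, which include secreted WNT and NODAL antagonists of the streak and its endoderm (CER1, DKK1). GATA6 was 8.09-fold lower in SOX2 cells of CHIR+Activin, 3.54-fold lower in CHIR and 3.92-fold lower in BMP4. CER1 was 53.1 CPM in CHIR+Activin cells with SOX2, against 276 CPM in those without. In BMP4 2.15% of genes were at least 2-fold higher and 2.36% at least 2-fold lower in SOX2 cells. The same shares were 0.0514% and 0.822% in CHIR+Activin, and 0.0203% and 0.152% in CHIR.

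For NANOG the likeness was weaker. The leading 8 were RNF43, NKX1-2, ARHGAP18, ZYG11A, GNA14, SEMA3A, NFE2L3 and SOX2 itself, and RNF43, a membrane ligase that restrains WNT signalling, was at log2 0.36 in CHIR+Activin, 0.24 in CHIR and 0.30 in BMP4. In sparse counts such small ratios are a description only. No gene was 2-fold higher with NANOG in CHIR+Activin or CHIR, and 0.166% and 0.0102% were at least 2-fold lower. Opposed to NANOG were GATA6, FGF17, DKK1, DSCAM, PLXNA2, CALCR, LINC02955 and CER1, with GATA6 at log2 -1.46 in CHIR+Activin, -1.02 in CHIR and -1.59 in BMP4. For POU5F1, between its upper and lower cells, LNCPRESS1, a non-coding RNA of pluripotent cells, led at log2 0.72, 0.67 and 2.24 in these libraries. CFAP95, WDR54, S100A10, CLDN4, TUBA1A, FAM162A and LINC01405 followed. The opposed genes were GATA6, FGF17, CALCR, PLXNA2, CER1, LINC02955, DSCAM and DKK1, of which GATA6, FGF17, CALCR, PLXNA2, CER1 and DKK1 also stood among those opposed to SOX2 and to NANOG.

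Between upper and lower POU5F1 cells, 0.0102% of genes were at least 2-fold higher and 1.39% at least 2-fold lower in CHIR+Activin, 0% and 0.151% in CHIR, and 0.736% and 2.15% in BMP4. In CHIR+Activin the genes furthest below in cells with high POU5F1 were SOX17, LGR5, LHX1, GATA6-AS1 and ENSG00000287231. LHX1, a factor of anterior streak and endoderm, was 2.67 CPM in the upper POU5F1 cells, against 87.0 CPM in the lower. In BMP4 SOX2 itself led the genes that were higher with POU5F1, and LGR5, a receptor of R-spondins, was 6.69 CPM in the upper cells, against 55.4 CPM in the lower. LGR5 was also the gene furthest below in BMP4 cells with NANOG, at 5.29 CPM, against 33.5 CPM in those without.

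Most other genes of the pluripotency network were less than 2-fold apart between libraries. Of 28 listed genes of the pluripotent epiblast, which exclude the 3 members, 24 were compared between CHIR+Activin and BMP4, and 4 were at least 2-fold higher in CHIR+Activin, beside 1.84% of all genes, with a median log2 ratio of 0.30, against -0.01 over all genes. They were LINC-ROR, GDF3, USP44 and ESRG. Between CHIR and BMP4 3 of 23 were higher, GDF3, USP44 and ESRG, beside 2.85% of all genes, with a median of 0.23, against 0.03. GDF3, a TGF-beta family ligand, was 56.9 CPM in CHIR+Activin and 47.7 CPM in CHIR, against 21.3 CPM in BMP4. LIN28A, an RNA-binding protein, differed little, at 538 CPM, 600.3 CPM and 432 CPM.

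Within BMP4, 7 of 25 such genes were at least 2-fold higher in cells with a SOX2 UMI than in those without, beside 2.15% of all genes, with a median log2 ratio of 0.61, against -0.01 over all genes. They were USP44, TERF1, ESRG, PRDM14, DPPA2, GDF3 and PODXL. In BMP4 cells with a NANOG UMI 1 of 23 was, USP44, with a median of 0.25, beside 0.405% of all genes at least 2-fold higher and 1.12% at least 2-fold lower. In CHIR+Activin 0 of 25 and in CHIR 0 of 23 were 2-fold higher with SOX2, beside 0.0514% and 0.0203% of all genes, with medians of 0.23 and 0.15. Of the 8 nascent mesoderm genes compared in BMP4, all were at least 2-fold lower in cells with SOX2, beside 2.36% of all genes, as were the 9 compared in cells with NANOG, beside 1.12%. With SOX2 the same held for 5 of 5 amnion or trophoblast and 4 of 4 lateral or extraembryonic mesoderm genes. It also held for 4 of 5 definitive endoderm, 5 of 6 caudal epiblast, 6 of 12 primitive streak and 0 of 2 neural ectoderm genes. Of 5 germ cell genes compared in BMP4, PRDM1 and PDPN were at least 2-fold higher in cells with NANOG (2 of 5, beside 0.405% of all genes). SOX17 and PRDM1 were at least 2-fold lower in cells with SOX2 (2 of 5, beside 2.36%). Both also stand in the definitive endoderm list and were counted there. HAND1, GATA6, CDX2 and EVX1 likewise stand in more than 1 of these lists, so the counts of the lists are not separate results.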

How the data were processed

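The 3 libraries were deposited as whole-number UMI counts per gene and barcode, and per the file headers they came from Cell Ranger 8.0.1. The submitters' processing notes also name Seurat, and the sources used here do not give the genome build. The BMP4 matrix held all droplets, and its barcodes were kept from 10% of the 99th percentile of the UMIs of its largest 10000 barcodes, or 3739 UMIs, while the other matrices held called cells. The filters on genes and mitochondrial UMIs were the same for all. Doublets were not removed in the values given, and removal of the 6% of barcodes with the highest doublet scores, from simulated doublets, was an alternative.

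Counts were summed over cells for CPM, with exact Poisson intervals. Shares had Clopper-Pearson intervals, and ratios had exact conditional binomial intervals. All cover counting error only, since each treatment was 1 library and its replicate number is only a name. For values per cell, each cell was thinned to 10000 UMIs with a fixed seed. The steps were tested on simulated data. Python 3.11.15, NumPy 2.4.6, SciPy 1.17.1, pandas 2.3.3, scikit-learn 1.9.0 and matplotlib 3.10.9 were used.

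The members, marker genes and gene lists were chosen with earlier results of these data known. Named genes were the 8 most alike in each direction by the smallest log2 ratio over the 3 libraries, the 5 leading genes in each library, and list genes past the 2-fold rule. The genes shown for cells with NANOG alone and LIN28A were chosen after their values were seen.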

Additional observations from a re-analysis of the deposited data

Results flagged for a closer look

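NANOG went opposite ways in the SOX17 cells, pooled with and without TFAP2C, of the libraries that held at least 50 of them. In CHIR+Activin its log2 ratio between SOX17 cells and the other cells was -1.31, and in BMP4 it was 0.59. The difference between them was not tested, since each treatment was 1 library. The CHIR+Activin value rests on 23 NANOG UMIs in 84 cells. The BMP4 value rests on 283 NANOG UMIs in 648 cells, of which 143 lay in the 175 cells that also held TFAP2C. Those 175 cells stood at 81.7 CPM and the whole BMP4 group at 43.7 CPM, so the higher ratio need not hold for SOX17 cells without TFAP2C. The NANOG level of the latter was not computed. In CHIR+Activin 1 cell held both markers.

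Members were also found in droplets that no comparison used. In the BMP4 matrix 1592061 droplets with 1 to 100 UMIs held POU5F1 at 861 CPM, SOX2 at 44.7 CPM and NANOG at 48.1 CPM. These levels were 0.961, 1.87 and 1.57 times those in the kept BMP4 cells. The part of such RNA in the levels of single cells was not tested.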

How the results depend on the processing

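No ratio past 2-fold changed sign under the alternatives run, and the cause of each shift was not tested. Scaling by the median of ratios gave log2 0.19 for POU5F1 in CHIR over BMP4, and 0.086, 0.33 and -0.066 for POU5F1, SOX2 and NANOG in CHIR+Activin over CHIR. The mean of per-cell CPM gave POU5F1 0.31 and SOX2 1.98 in CHIR+Activin over BMP4, and 0.26 and 1.68 in CHIR over BMP4. An alternative chosen after seeing the data left out cells of high integrated stress and all cells under 10000 UMIs. The latter were 2360 of the 9401 BMP4 cells. It kept 4344 CHIR+Activin, 3165 CHIR and 6569 BMP4 cells. POU5F1 and SOX2 were then 0.22 and 1.94 in CHIR+Activin over BMP4. POU5F1, SOX2 and NANOG were 0.18, 1.93 and 1.29 in CHIR over BMP4, and SOX2 was 0.011 in CHIR+Activin over CHIR.

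The counts of genes at least 2-fold higher and lower followed the minimum level. With genes of at least 1 CPM they were 472 and 773 in CHIR+Activin over BMP4, 817 and 804 in CHIR over BMP4, and 78 and 16 in CHIR+Activin over CHIR, and with at least 50 CPM they were 63 and 82, 90 and 96, and 4 and 0. With the minimum of 10 CPM they were 183 and 287, 288 and 313, and 18 and 2. Thinned to 5000 UMIs, the shares in CHIR+Activin, CHIR and BMP4 were 98.5%, 98.5% and 97.2% for POU5F1, 30.6%, 26.4% and 7.99% for SOX2, and 27.6%, 30.6% and 12.3% for NANOG. With detection at 2 UMIs, both over expected was 1.19, 1.24 and 2.43. Of 129 alternatives for ratios in marker gates, 128 kept their sign, all but POU5F1 in CDX2 cells of BMP4 with a gate of 1 UMI (log2 -0.022), and 30 lay outside the counting interval. The stricter cell filter, doublet removal, the BMP4 UMI minimum in all libraries, adding the near-identical copy, and marker genes at 0 in unthinned counts (chosen after seeing the data, like the copy) left the other values within their intervals. No paired analysis was possible because each group was 1 library.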
